A study of Mus musculus with 2 samples.

Results

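Class I and class IIa histone deacetylase genes were examined for binding of Sap130 in the embryonic mouse brain. The group comprises 8 genes, Hdac1, Hdac2, Hdac3 and Hdac8 of class I and Hdac4, Hdac5, Hdac7 and Hdac9 of class IIa, out of 20953 protein-coding genes considered. A peak was assigned to a gene where the deposited table labelled it with that gene, or where it overlapped the gene body or the 1 kb around its ends, and 13 of the 16231 peaks in the list met this rule. The peaks came from 1 library of chromatin enriched with a rabbit anti-Sap130 antibody (2 µg), set against 1 library of input DNA. Both were made from brain of B6 wildtype mouse embryos at stage E13.5, and the labels give neither the number nor the sex of the embryos. With 1 library of each kind, the values carry no replicate error and no test between samples was possible. A labelled peak stood on 6 of 8 brain marker genes (not on Nes and Dcx), on 0 of 11 markers of blood, microglia, endothelium and liver, and on 49.2% of all protein-coding genes. Peak presence also followed promoter CpG content and does not measure expression, so these counts are no check of the tissue label.

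Histone deacetylases remove acetyl groups from lysines of histone tails and of other proteins. Hdac1 and Hdac2 are the catalytic subunits of the Sin3 complex, to which Sap130 belongs, and also of the NuRD and CoREST complexes, while Hdac3 works in the NCoR complex and Hdac8 deacetylates the cohesin ring. Class IIa enzymes have weak catalytic activity of their own, bind transcription factors of the Mef2 family, and leave the nucleus on 14-3-3 proteins once they are phosphorylated. The comparison therefore asks where a Sin3 subunit lay at genes that encode the enzyme of its own complex and the relatives of that enzyme.

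All 8 deacetylase genes held at least 1 Sap130 peak, compared with 57.3% of protein-coding genes. For 5 of the 8 (Hdac1, Hdac2, Hdac5, Hdac7 and Hdac8) a peak carried the gene's own label, compared with 49.2% of protein-coding genes, and the exact binomial interval of the share of 62.5% ran from 24.5 to 91.5. The interval covers counting error only. With 8 genes chosen with earlier results known, it cannot decide whether the share differs from that of all genes. The remaining 3 genes, Hdac3, Hdac4 and Hdac9, had a peak that was labelled with a neighbour or with nothing, as did 16.0% of the 10639 genes without a label. Longer genes held a peak more often. The share was 65.3% among genes of 15 to 60 kb, the range of Hdac1, Hdac2, Hdac3, Hdac5 and Hdac7, and 81.6% among genes of 200 kb or more, the range of Hdac8, Hdac4 and Hdac9.

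**Figure D1:**
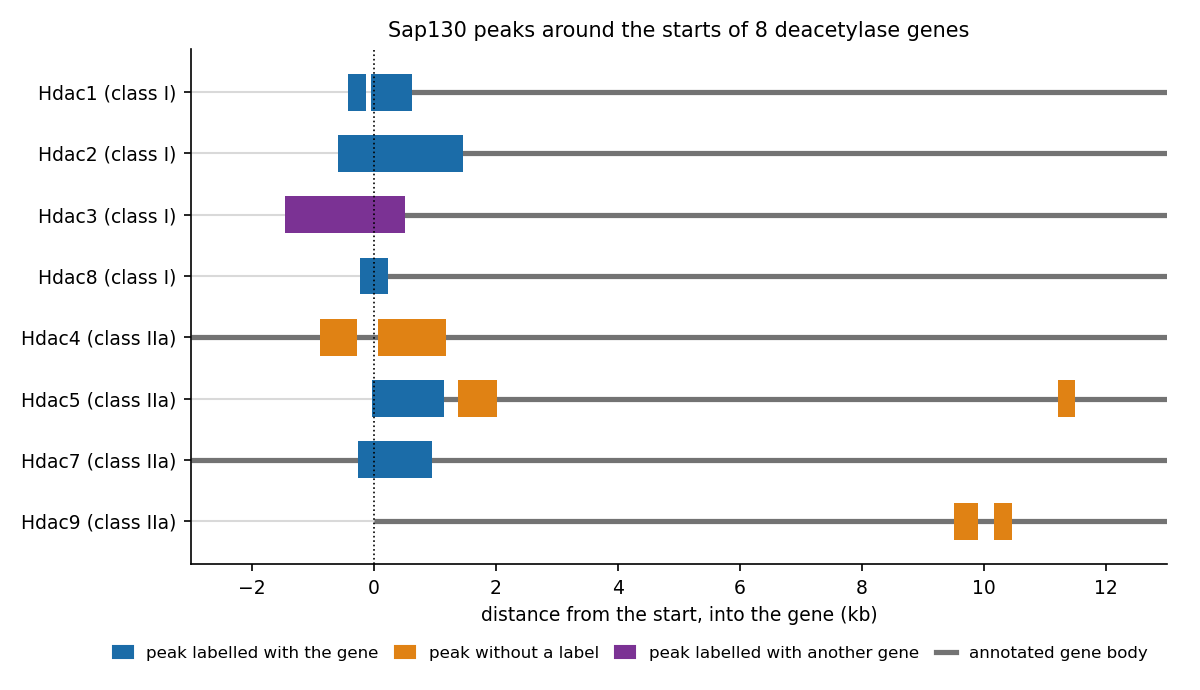
Sap130 peaks (coloured bars) of the 8 deacetylase genes by distance in kb from the start, with the annotated gene body in dark grey and the gene drawn towards the right. The start is that of the labelled transcript, or the outermost start in the promoter table for Hdac4 and Hdac9. For Hdac3, whose strand was not given by the starts used, it is the annotated gene boundary beside the peak. Peaks of Hdac1, Hdac2, Hdac3, Hdac5, Hdac7 and Hdac8 span 0, those of Hdac4 lie on both sides of it, and those of Hdac9 begin 9505 bp inside the gene.

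Annotated starts are those of the RefSeq promoter table and of the labelled transcripts, for the members and for all genes. Of the 13 peaks, 5 contained an annotated start of the member. A further 3, 1 of Hdac1 and 2 of Hdac4, had their centre within 1 kb of one. For Hdac1 only its label gives a start, and labelled peaks lie within 1 kb of theirs throughout the list. The Hdac3 peak contained the labelled start of Rell2, and 4 peaks, of Hdac5 and Hdac9, lay over 1 kb from every annotated start. A member's own label stood on 6 of the 13 peaks, that of Rell2 on 1, and 6 had no label, while 22.0% of all peaks in the list had none. Class I genes held 5 peaks, none of them without a label, and class IIa genes held 8, of which 6 were without one. A peak with its centre inside the gene and over 1 kb from every annotated start was found in 2 of the 7 genes with an annotated start (Hdac3 has none here), Hdac5 and Hdac9, both of class IIa, against 8.34% of protein-coding genes with an annotated start. Among genes of 200 kb or more, such as Hdac9, that share was 28.3%, and among genes of 15 to 60 kb, such as Hdac5, it was 6.91%. With 4 genes in each class, the difference between the classes is given as counts.

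Promoter sequences are shown for the members whose windows differed in overlap with peaks. Each is the RefSeq window of build GRCm38.p6, 300 bases long, from 250 bases before the annotated start onwards, read 5′ to 3′ on the strand of the gene, with every CpG in capitals. The RefSeq promoter table matched 6 of the 8 members by symbol, and no window is shown for Hdac1 and Hdac3. The windows of Hdac2 (chr10:36974294-36974593, plus strand) and Hdac7 (chr15:97831718-97832017, minus strand) lay wholly inside a peak and are rich in CpG. That of Hdac8 (chrX:102505109-102505408, minus strand) was covered over 276 bases although it holds 6 CpG. That of Hdac5 (chr11:102230123-102230422, minus strand) was covered only over its last 76 bases. The window of Hdac4 (chr1:92180292-92180591, minus strand) lay between a pair of peaks, and those of Hdac9 (chr12:34917046-34917345, minus strand) and of the outermost Hdac7 start (chr15:97844453-97844752, minus strand) lay far from any.
Hdac2: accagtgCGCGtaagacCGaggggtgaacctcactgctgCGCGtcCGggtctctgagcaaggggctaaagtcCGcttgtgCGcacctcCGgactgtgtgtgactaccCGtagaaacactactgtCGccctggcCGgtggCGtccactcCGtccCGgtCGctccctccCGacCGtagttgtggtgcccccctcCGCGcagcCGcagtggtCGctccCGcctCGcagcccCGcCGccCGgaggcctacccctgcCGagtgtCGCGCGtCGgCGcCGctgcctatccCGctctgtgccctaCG
Hdac7: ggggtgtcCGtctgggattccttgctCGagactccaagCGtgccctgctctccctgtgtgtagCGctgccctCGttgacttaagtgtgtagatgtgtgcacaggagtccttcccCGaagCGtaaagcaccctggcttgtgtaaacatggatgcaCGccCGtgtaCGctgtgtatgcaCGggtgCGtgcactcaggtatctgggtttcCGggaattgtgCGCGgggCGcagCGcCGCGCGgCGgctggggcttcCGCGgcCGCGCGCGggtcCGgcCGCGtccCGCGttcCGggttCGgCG
Hdac8: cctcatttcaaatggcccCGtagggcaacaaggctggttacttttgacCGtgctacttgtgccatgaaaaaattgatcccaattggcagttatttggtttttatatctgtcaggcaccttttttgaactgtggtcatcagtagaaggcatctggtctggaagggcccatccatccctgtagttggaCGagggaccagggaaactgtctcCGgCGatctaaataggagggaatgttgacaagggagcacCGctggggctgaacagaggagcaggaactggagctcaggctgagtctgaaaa
Hdac5: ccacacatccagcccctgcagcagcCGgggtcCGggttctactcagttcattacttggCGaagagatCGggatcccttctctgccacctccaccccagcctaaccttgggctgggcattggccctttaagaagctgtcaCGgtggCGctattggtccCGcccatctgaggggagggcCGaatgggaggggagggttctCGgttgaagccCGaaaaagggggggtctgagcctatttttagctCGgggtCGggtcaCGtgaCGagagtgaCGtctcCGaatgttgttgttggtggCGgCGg
Hdac4: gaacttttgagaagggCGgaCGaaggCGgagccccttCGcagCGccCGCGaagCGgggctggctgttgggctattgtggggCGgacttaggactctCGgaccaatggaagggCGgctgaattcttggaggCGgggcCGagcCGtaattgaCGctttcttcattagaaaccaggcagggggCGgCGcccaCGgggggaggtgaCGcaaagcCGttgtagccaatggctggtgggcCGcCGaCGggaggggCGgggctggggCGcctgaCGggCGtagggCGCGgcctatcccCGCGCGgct
Hdac9: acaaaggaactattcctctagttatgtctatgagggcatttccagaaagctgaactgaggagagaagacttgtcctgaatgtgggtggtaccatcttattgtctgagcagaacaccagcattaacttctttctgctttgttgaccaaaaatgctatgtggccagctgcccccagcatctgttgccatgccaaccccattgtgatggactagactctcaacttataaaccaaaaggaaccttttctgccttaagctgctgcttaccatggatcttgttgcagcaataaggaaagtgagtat
Hdac7, outermost start: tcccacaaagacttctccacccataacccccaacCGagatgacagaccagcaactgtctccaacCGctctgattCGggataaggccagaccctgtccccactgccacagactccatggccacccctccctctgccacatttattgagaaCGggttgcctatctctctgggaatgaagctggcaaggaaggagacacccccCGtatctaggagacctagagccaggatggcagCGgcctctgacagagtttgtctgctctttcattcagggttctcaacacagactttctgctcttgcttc

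Overlap with a peak followed CpG content across all promoters. The 10 deacetylase windows came from 6 genes, so they are described 1 by 1 and not counted as separate genes. A peak overlapped 49.4% of the 20418 promoter windows of protein-coding genes. The share was 0.949% where the ratio of observed to expected CpG was below 0.2, 8.13% from 0.2 to 0.4, 43.2% from 0.4 to 0.6, 76.0% from 0.6 to 0.8, 91.1% from 0.8 to 1.0 and 95.4% above. These shares describe windows of 1 peak list, several of which can belong to 1 gene. The ratio was 1.01 for Hdac2, with 36 CpG, and 0.66 for Hdac5, with 18 CpG, and a peak overlapped both. Of the 4 Hdac7 windows, those at 0.79 and 1.09 were overlapped over their whole length and those at 0.18 and 0.28 were not. The Hdac9 windows, at 0 and 0.20, were overlapped by none.

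A pair of genes did not follow this pattern. The Hdac8 window had a ratio of 0.33, a range in which 282 of 3469 windows were overlapped, and yet its start lay within a peak. The Hdac4 window had a ratio of 0.98 with 32 CpG and was not overlapped, although 3852 of 4230 windows in that range were. It lay between its 2 peaks, and the annotated start was 63 bp from the nearer one. Of 10328 windows without overlap, 14, from 14 genes, had a peak within 100 bp on both sides as the Hdac4 window did.

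**Figure D2:**
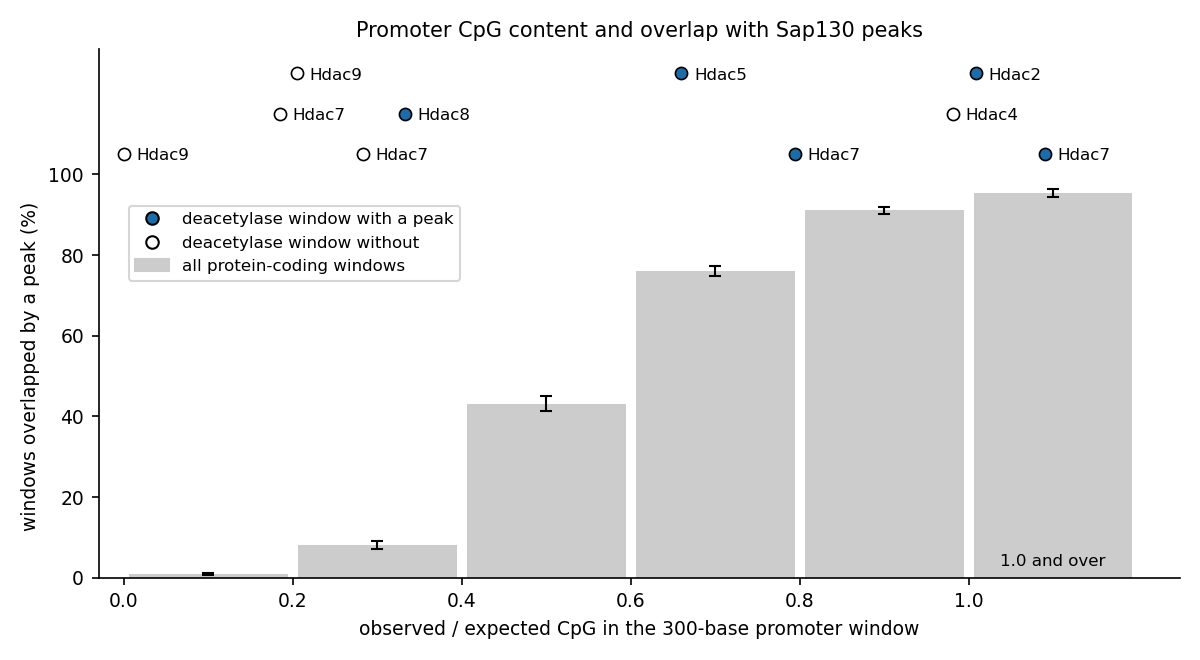
Share of promoter windows overlapped by a Sap130 peak (bars, in %, with exact 95% intervals) by the ratio of observed to expected CpG in the window, the last bar standing for 1.0 and over. Circles above the bars place the 10 windows of deacetylase genes, filled where a peak overlapped them: Hdac8 is filled at 0.33 and Hdac4 is open at 0.98.

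Short motifs known from promoters were searched in these windows on both strands, by exact letters. GGGCGG, the GC box bound by SP and KLF factors, occurs in 47.7% of all protein-coding windows, in 71.5% of those a peak overlapped and in 24.5% of the others. Hdac4 held 5 GC boxes, a number reached by 3.88% of windows, and Hdac2, Hdac5 and 1 Hdac7 window held 1 each. CCAAT, the box bound by NFY, occurs in 38.4% of windows with a peak and of windows without one, and was found in Hdac4, Hdac5 and Hdac8, at 2 positions each, which overlap each other on opposite strands in Hdac8. Hdac5 also held the E-box CACGTG (8.05% of windows) and TGACGTC (3.98%), which is only part of the cyclic AMP response element. These matches began 3 and 16 bases past the start and thus lay inside the stretch that the peak covered. TATAAA, present in 12.4% of windows, began 29 bases before the outermost Hdac9 start. In Hdac8 it matched on the opposite strand, at 151 bases before the start. The ETS sequence CCGGAAG (11.9% of windows) and the E2F sequences TTTCGCGC (0.470%) and TTTGGCGC (0.661%) were found in none of the 10 windows. In windows with and without a peak, CCGGAAG occurred in 20.7% and 3.31%, CACGTG in 11.2% and 5.02%, and TGACGTC in 6.20% and 1.80%. The shares were 0.783% and 0.165% for TTTCGCGC, 1.07% and 0.261% for TTTGGCGC, and 5.29% and 19.3% for TATAAA. All these motifs except CCAAT and TATAAA contain a CpG. Whether their shares differ beyond CpG content was not tested. None of these motifs contains another. A match is a run of letters and not a measured site.

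Among class I genes, Hdac2 carried the broadest peak. It lay at chr10:36973951-36976001, was 2050 bp wide and stood at place 3049 of the list. It was wider than 96.1% of all peaks and had its centre 432 bp past the start, in intron 1. The nearest other peak lay 131.9 kb outside the Hdac2 window and had no label. The order of the deposited list is not explained in the sources used here, but earlier peaks tend to be wider, and the place is given for that reason.

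Hdac1, the close relative of Hdac2 and its alternative in the same complexes, had smaller peaks. Both were labelled Hdac1. The one at chr4:129542023-129542692 was 669 bp wide, stood at place 8986 and contained the start, with its centre 288.5 bp past it in intron 1. The other, at chr4:129542770-129543075, lay upstream of the gene, was 305 bp wide and stood at place 13090. A gap of 78 bp separated them, and together they covered 974 bp, less than the 2050 bp of Hdac2. Over all 20953 protein-coding genes, labelled or not, 1682 (8.03%) carried their label on 2 or more peaks, and 10314 carried a label at all. The pseudogene copy Hdac1-ps had 0 peaks in or within 1 kb of it.

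Hdac3, whose product is the enzyme of the NCoR complex, had a broad peak without its own name. The peak at chr18:37954515-37956476 was 1961 bp wide, wider than 95.5% of all peaks, and stood at place 6953. It was labelled Rell2, whose labelled start lay 63.5 bp from the peak centre. The centre was 480.5 bp outside the nearer annotated boundary of Hdac3. Of its width, 500 bp lay within Hdac3. The RefSeq gene body of Hdac3 covers positions 37936971 to 37955015, and that of Rell2 begins at 37955054. The starts used here give no strand for Hdac3, so whether this boundary is its start or its far end was not determined. The peak therefore spans the short gap and reaches into both genes, with its centre inside Rell2. The list does not tell which of them it belongs to.

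Hdac8, which is X-linked and acts on cohesin, had a single narrow peak. It lay at chrX:102504919-102505384, was 465 bp wide and stood at place 11874, with its centre 3.5 bp upstream of the labelled start. Labels were less common on X, at 36.7% of 905 genes, than on the autosomes, at 49.8% of 20048. Among the 422 labelled peaks on X, 64.2% were wider than that of Hdac8 and 36.7% stood later. A long non-coding RNA gene, Gm32262, overlaps the same peak.

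Among class IIa genes, Hdac5 had the most peaks and the earliest in the list. Hdac5 restrains stress-induced growth in heart muscle and moves out of the nucleus with neuronal activity. Its labelled peak at chr11:102229026-102230198 was 1172 bp wide and stood at place 2111. It ran almost wholly into the gene, with 1146 bp past the start and its centre 560 bp past it. An unlabelled peak of 632 bp followed after 232 bp at chr11:102228162-102228794 (place 11272), also in intron 1. A last one of 271 bp lay 11348.5 bp past the start in intron 2, at chr11:102218688-102218959 (place 15394). It was wider than only 9.35% of all peaks. Hdac5 thus held 3 peaks, a number reached by 4.04% of genes of 15 to 60 kb. The microRNA gene Mir8101 lies within the labelled peak.

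Hdac4, a regulator of cartilage growth and of neurons, had a pair of peaks that carried no label. The one at chr1:92179159-92180278 was 1119 bp wide and stood at place 3195, early among unlabelled peaks, whose median place was 12558. Its partner at chr1:92180627-92181231 was 604 bp wide and stood at place 9425. Their centres lay 622.5 bp past and 588 bp before the annotated start, and 349 bp separated them. Both centres are within 1 kb of this RefSeq start, the distance within which labelled peaks lay, and the table used here holds no transcript model of Hdac4. The RefSeq gene body extends 15.4 kb further upstream, and no peak lay at its outer end.

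Hdac7, which is known for its part in vessels and thymocytes, had its peak at an internal start. The peak at chr15:97830809-97832026 was 1217 bp wide, wider than 80.6% of all peaks, and stood at place 8071. Its centre fell in the non-coding part of exon 1 of the labelled transcript. It covered 2 of the 4 annotated starts, whereas the outermost start lay 12476 bp away from it and the remaining one 15946 bp away. A long non-coding RNA gene, Gm33636, overlaps it. Of the 5 genes with a label, Hdac7 alone had no peak at its outermost start.

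Hdac9, which acts in muscle and heart and also gives rise to a form without the catalytic domain, was the gene farthest from the usual promoter pattern. Over its 869.5 kb it held 2 narrow peaks, at chr12:34906628-34906939 (311 bp, place 10254) and chr12:34907190-34907590 (400 bp, place 9965). They were 251 bp apart and their centres lay 10311.5 and 9705 bp inside the outermost start. Neither had a label, and neither annotated start was overlapped. The density was 0.229 peaks per 100 kb, against 0.362 over all genes of 200 kb or more and 0.449 and 0.744 in Hdac8 and Hdac4. Density is divided by length, and Hdac8 and Hdac4 are shorter, at 220.7 and 266.9 kb. By count, Hdac9 held 2 peaks, as many as Hdac4 and more than Hdac8. A count of 2 or more was reached by 38.8% of genes of 200 kb or more.

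**Figure D3:**
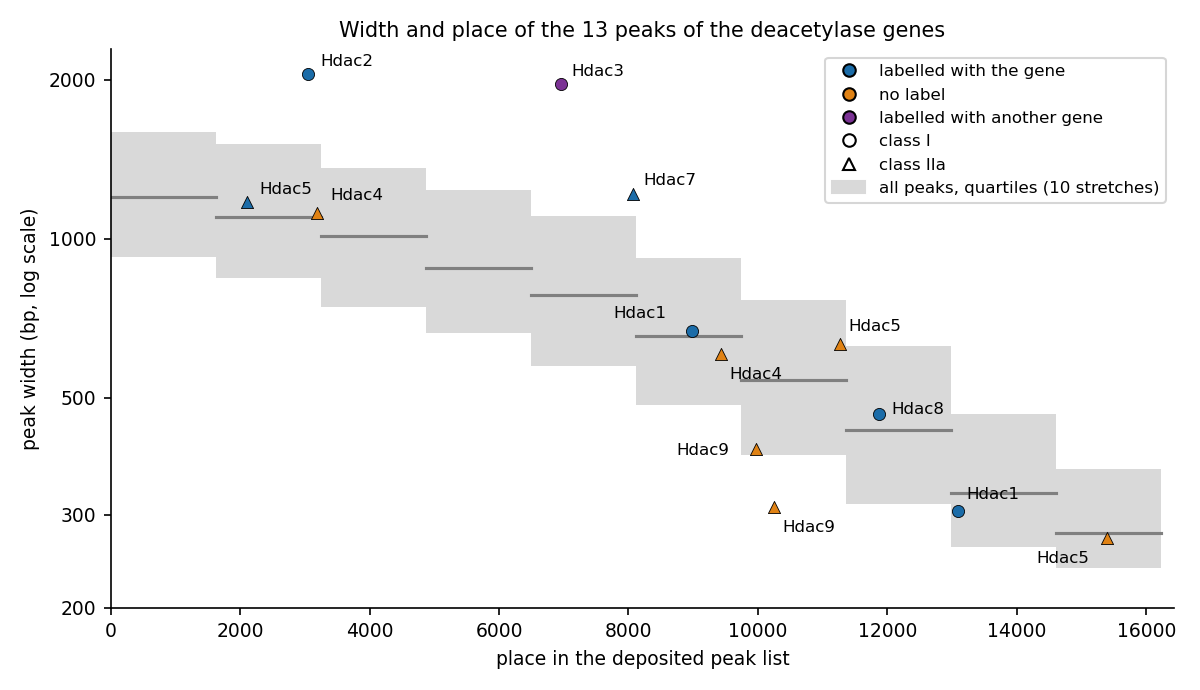
Width in bp (log scale) of the 13 peaks against their place in the deposited list, with the quartiles of all peaks in 10 equal stretches of the list in grey and their median as a line. Hdac2, Hdac3 and Hdac7 lie above the grey band at 2050, 1961 and 1217 bp, and both Hdac9 peaks lie at its lower edge or under it.

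Peak width varied within both classes. The median width was 669 bp over the 5 class I peaks and 618 bp over the 8 class IIa peaks, against 690 bp over all peaks. Widths ran from 305 to 2050 bp in class I and from 271 to 1217 bp in class IIa, so the classes overlapped. Peaks often came in pairs: Hdac1, Hdac4, Hdac5 and Hdac9 each held 2 peaks within 500 bp of each other, 4 of the 8 genes, against 14.5% of protein-coding genes. The same 4 genes were those with 2 or more peaks, against 18.9% of protein-coding genes, 38.8% of genes of 200 kb or more (as Hdac4 and Hdac9) and 19.2% of genes of 15 to 60 kb (as Hdac1 and Hdac5). Of the 13 member peaks, 8 had another within 500 bp, against 39.2% of all peaks in the list, where the smallest gap was 50 bp. Over all protein-coding genes, 3968 held 2 or more peaks and 3048 held 2 within 500 bp. A close pair is thus usual in genes with several peaks. Whether such pairs are separate sites or 1 region divided by the peak caller was not tested.

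The nearest peaks outside the rule lay close by at 2 genes. A Marcksl1 peak of 1555 bp (place 2518) ended 165 bp beyond the Hdac1 window, on the side away from its start, and a peak of 1027 bp labelled Diap1 (place 5894) ended 147 bp beyond that of Hdac3. At the other 6 genes the nearest outside peak was 4.56 to 276.6 kb away. It was labelled G6pc3 at Hdac5, Slc48a1 at Hdac7, Cited1 at Hdac8, Twist1 at Hdac9 and Ndufa10 at Hdac4.

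Genes of the partners and relatives of these enzymes are set here beside the labelled share of 49.2% over all protein-coding genes. That share was 57.2% among genes of 15 to 60 kb and 67.5% among genes of 200 kb or more. Median gene length was 17.8 kb over all genes and 18.0 to 141.0 kb in the lists that follow. Of 10 deacetylase genes of the other classes, 8 were labelled, led by Sirt3 (place 704), Sirt1 and Sirt7, with Sirt4 and Sirt5 unlabelled. Of 16 Sin3 partners 15 were, led by Arid4a, Ing1 and Sap30l, with Sap18 unlabelled. Labels stood on 8 of 10 NuRD genes (Gatad2a, Mbd3 and Chd4 earliest, Chd3 and Gatad2b without), and on 9 of 9 CoREST genes (Rcor1, Rcor2 and Kdm1a earliest). The 4 NCoR genes considered were all labelled, with Ncor1 (a peak of 2753 bp), Gps2 and Tbl1xr1 earliest, and so were the 3 genes of the mitotic deacetylase complex, Dnttip1, Mideas and Trerf1. Among Mef2, 14-3-3 and export genes it was 9 of 11, with Mef2d, Ywhah and Ywhag earliest and Mef2b and Mef2c without. All 11 kinases that act on class IIa enzymes (Mark3, Sik1 and Sik2 earliest) and all 10 acetyltransferase genes (Kat2a, Kat6a and Crebbp earliest) were labelled. A missing label did not mean a missing peak. Except for Mef2b, each unlabelled gene named in these lists held a peak in its body or 1 kb around its ends, against 16.0% of all genes without a label. The earliest labelled peaks of the 5 labelled class I and IIa genes had a median place of 8071, later than in each of these lists except the other deacetylase classes (8187.5), and against 5851.5 over all labelled protein-coding genes. These lists are small and were chosen with earlier results known, and no difference between them was tested.

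**Figure D4:**
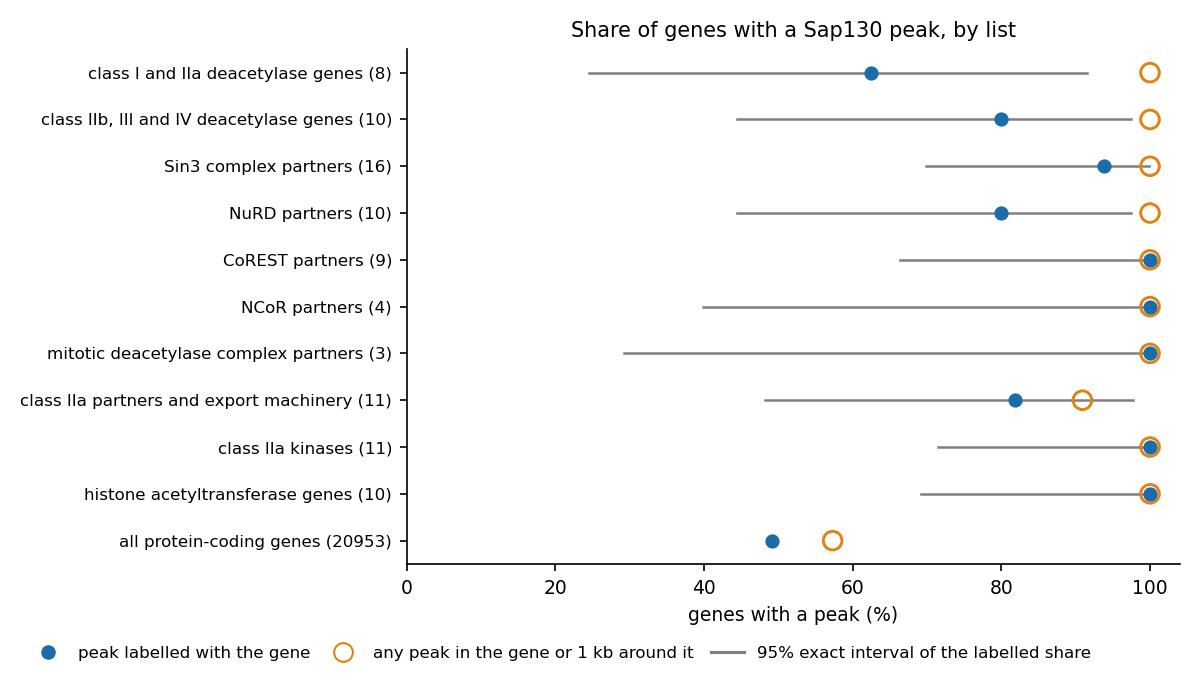
Share of genes in % with a Sap130 peak labelled with the gene (filled, with exact 95% intervals) and with any peak in the gene or 1 kb around it (open), by list, with the number of genes in brackets. The 8 class I and IIa deacetylase genes are at 62.5% for labels and all have a peak.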

How the data were processed

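ChIP-seq, in which DNA bound by a protein is enriched with an antibody and sequenced, was done by the authors on 1 Sap130 library with 1 input library. Per the submitters' processing notes, Bowtie 1.1.2 and MACS2 2.1.0.20140616 were used with build GRCm38 (mm10). Settings were not given in the sources used here, nor was a peak threshold or filter. The deposited table gives position and, for 12656 of 16231 peaks, a gene label with a transcript model. It gives no height, p-value or depth, so the depth behind each peak is unknown and intervals cover counting error only.

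Labels were matched to RefSeq genes of GRCm38.p6 by accession (12520), by symbol or synonym (134) or not at all (2). Transcript ends in the table count from 0 on both strands, since 73.8% and 73.4% of plus and minus strand starts equal a RefSeq start once raised by 1. Every labelled peak centre then lay at most 999.5 bp from its start. Peak bounds are printed as deposited and the minimum overlap was 1 bp. The background was the 20953 protein-coding genes on autosomes and X with a curated transcript. No p-value was computed. Shares carry exact (Clopper-Pearson) 95% intervals. Overlap counting was tested on simulated data. Python 3.11.15 and SciPy 1.17.1 were used.

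The members and lists were chosen with earlier results of these data known. All members are named with every peak. In other lists the 3 earliest labelled genes and up to 3 without a label are named. A partner gene is not reported here and is left out of its list. The motifs were chosen after the sequences had been seen. With 1 peak list, no likeness of genes across samples was computed.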

Additional observations from a re-analysis of the deposited data

How the results depend on the processing

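Of 15 alternatives, 9 left the count or share close to that reported and 6 moved it. Among the first 8115 peaks, 3 members kept a label (Hdac2, Hdac5 and Hdac7), the members held 5 peaks, and 0 had a peak over 1 kb from every annotated start. Among peaks at least as wide as the median, the counts were also 3 labels and 5 peaks. In both settings, Hdac1, Hdac8 and Hdac9 held no peak. A shorter list can only lower such counts, for any gene. No share over all protein-coding genes is given for the alternative member counts. With all protein-coding genes as background the labelled share was 47.7%, outside the counting interval of 48.5 to 49.9. A peak centre within 500 bp of an annotated start was found for 4 members (without Hdac5), and within 1 kb of the outermost 5′ end also for 4 (without Hdac7). Added after the data were seen were any start within 1 kb whatever the label, which gave 6 members and took in Hdac4, and a peak within 1 kb of either gene end, which gave 5 with Hdac3 in place of Hdac7. Windows of the gene body alone and with 5 kb on both sides held 12 and 15 peaks. No stricter threshold by fold or q-value could be applied, since the table used here gives neither. No paired analysis was possible because the ChIP and the input are single libraries.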
